A study of Rattus norvegicus with 3 samples.

Results

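The arrays carried 35508 genes, counted by name and including transcripts known by a number alone. Of these, 10 form 5 pairs of isoforms that catalyse the same steps of glycolysis: the hexokinases Hk1 and Hk2, the phosphofructokinases Pfkl and Pfkp, the aldolases Aldoa and Aldoc, the enolases Eno1 and Eno3, and the lactate dehydrogenases Ldha and Ldhb. They were chosen by name, and 12 of the 41012 gene probes measured them, with 2 probes each for Hk1 and Eno1. The study compared a rat induced pluripotent stem (iPS) cell line called F65 with a mixture of adult rat cells called mix1. On each of 3 two-colour Agilent arrays an RNA sample of iPS F65, labelled with the green dye Cy3, was hybridised against mix1, labelled with the red dye Cy5. The iPS F65 samples, numbered 1 to 3, were untreated and came from cells kept on a layer of irradiated mouse embryonic fibroblasts in serum-containing stem cell medium, so that mouse feeder RNA could be in them. The mix1 RNA came from primary fibroblasts of the ear and cells of the bone marrow, both from rat and kept in culture untreated, and served as 1 control sample on all 3 arrays.

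Glycolysis splits glucose to pyruvate in the cytosol, and lactate dehydrogenase converts pyruvate to lactate and back. Several steps are encoded by more than 1 gene, and the isoforms differ in where they are expressed and in how they are regulated rather than in the reaction. Hk1, Aldoa, Eno1 and Ldha are the widely expressed forms, whereas Aldoc and Eno3 are known from brain and from striated muscle. Pluripotent stem cells are known to be strongly glycolytic and to switch hexokinase and other isoforms as they are made or differentiate.

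The probes are 60-base DNA oligonucleotides, and the part of the transcript that each one reads decides whether it can tell an isoform from its relative. Those of Hk1 and Hk2 are shown because the dimmer Hk1 probe and the Hk2 probe lay on related stretches: laid against each other without gaps they overlapped by 48 bases, of which 32 were equal and 16 differed. The bases that differ within the overlap are in capitals, and all sequences run 5′ to 3′ in the letters of the scanner files.
Hk1 dimmer probe: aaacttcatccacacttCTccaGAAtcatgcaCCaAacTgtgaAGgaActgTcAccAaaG
Hk2 probe: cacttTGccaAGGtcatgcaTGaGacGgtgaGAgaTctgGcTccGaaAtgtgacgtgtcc
The dimmer Eno1 probe and the Eno3 probe overlapped by 17 bases at their ends, of which 12 were equal, and are shown with the 5 differing bases in capitals.
Eno1 dimmer probe: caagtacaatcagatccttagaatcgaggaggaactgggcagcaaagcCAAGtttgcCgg
Eno3 probe: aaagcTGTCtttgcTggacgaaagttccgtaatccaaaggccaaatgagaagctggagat
All these comparisons set probe against probe, and how alike a probe is to the transcript of the other isoform was not measured. The probes of the lactate dehydrogenases, the pair in which both genes were higher in iPS F65, showed no overlap of at least 15 bases with at least 60% equal bases.
Ldha probe: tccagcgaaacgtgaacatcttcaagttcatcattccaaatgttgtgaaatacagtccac
Ldhb probe: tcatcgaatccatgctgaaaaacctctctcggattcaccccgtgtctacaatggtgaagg
The Pfkp and Aldoa probes are shown as examples that share no run of 14 bases with any other gene probe on the array.
Pfkp probe: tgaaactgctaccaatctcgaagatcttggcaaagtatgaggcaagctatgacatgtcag
Aldoa probe: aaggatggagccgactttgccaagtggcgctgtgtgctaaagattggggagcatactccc

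The measure is the processed signal of each channel, which the scanner software had corrected for background and dye, and the log2 ratio of iPS F65 over mix1 on the same array, so that a value of 1 stands for a doubling in iPS F65. A gene was called higher or lower where limma's moderated test, with Benjamini-Hochberg adjustment over all 21775 genes tested, gave an adjusted p under 0.05 and the ratio reached 2-fold. Under this rule 30.9% of all genes tested were called higher and 24.5% lower, together 55.4%, and as many as 20803 genes passed the p limit alone, so that the 2-fold limit decided most calls. Of all called genes 55.8% were higher with the processed signals, against 41.2% with normexp background correction and loess dye normalization. The median log2 ratio of all genes was 0.25 with the processed signals and -0.08 with that alternative. Per array, 57.1% to 61.2% of gene spots were well above background for iPS F65 and 58.3% to 62.1% for mix1. Each dye was always on the same side, so a probe's own dye effect and a difference between the cells cannot be told apart. Nothing in the labels says that the 3 samples came from separate cultures, so the p-values measure the spread of these samples, which may be technical, and leave out the spread of mix1.

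The cell labels were checked against marker genes. Of 9 pluripotent cell markers with a probe, 7 were tested and 6 were higher in iPS F65, beside 30.9% of all genes. They were led by Nr0b1 (log2 ratio 4.87 ± 0.046, SD, n = 3) and Dnmt3b (4.22 ± 0.12). The other tested marker, Lin28a, was not called (-0.17 ± 0.037). Of the 6, Pou5f1 and Dppa3 were not well above background in mix1 and were tested through the iPS F65 channel alone. The summed signal of the 9 was 26678 to 30996 in iPS F65 and 2443 to 2567 in mix1, while Esrrb and Fgf4 were not well above background in either channel. All 14 fibroblast markers and 9 of 10 tested myeloid and leukocyte markers were lower in iPS F65, beside 24.5% of all genes. Summed signals were 37408 to 46667 against 2698948 to 3417076 for the fibroblast markers. For the myeloid and leukocyte markers they were 4100 to 5186 against 261046 to 303760. Thy1, Postn, Itgam and Aif1 were not well above background in iPS F65 and were tested through mix1 alone. Ctss, called lower, and Ptprc, not called, were also tested through mix1 alone. In iPS F65 they were well above background on 2 arrays and on 1 array. With both channels required above background, the markers tested were 5 pluripotent, 12 fibroblast, and 6 myeloid and leukocyte ones. Among the erythroid markers, Klf1 was higher in iPS F65 (log2 ratio 2.27 ± 0.019), Ahsp (-0.85 ± 0.024) and Epor (0.39 ± 0.19) were not called, and Hbb and Alas2 were not well above background in either channel. In such bulk samples fewer cells of a type and less RNA per cell cannot be told apart.

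The 10 isoforms did not move as a group. Hk2, Pfkp, Ldha and Ldhb were higher in iPS F65, Aldoc and Eno3 were lower, and Hk1, Pfkl, Aldoa and Eno1 met the rule in neither direction. These are 4 of 10 beside 30.9% of all genes for higher calls and 2 of 10 beside 24.5% for lower calls, and the median log2 ratio of the 10 was 0.43 beside 0.25 for all genes. All 12 probes were well above background in both channels of all 3 arrays, and array 1 gave the lowest signal of all 12 probes in both channels. The SD of a log2 ratio over the arrays lay between 0.0125 (Aldoa and Aldoc) and 0.078 (Hk2 and Pfkp). From high to low the order of the ratios was Ldhb, Pfkp, Ldha, Hk2, Pfkl, Eno1, Hk1, Aldoa, Eno3, Aldoc. Neighbours in this order did not overlap between arrays except Pfkp (1.43 to 1.59) and Ldha (1.45 to 1.51).

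**Figure D1:**
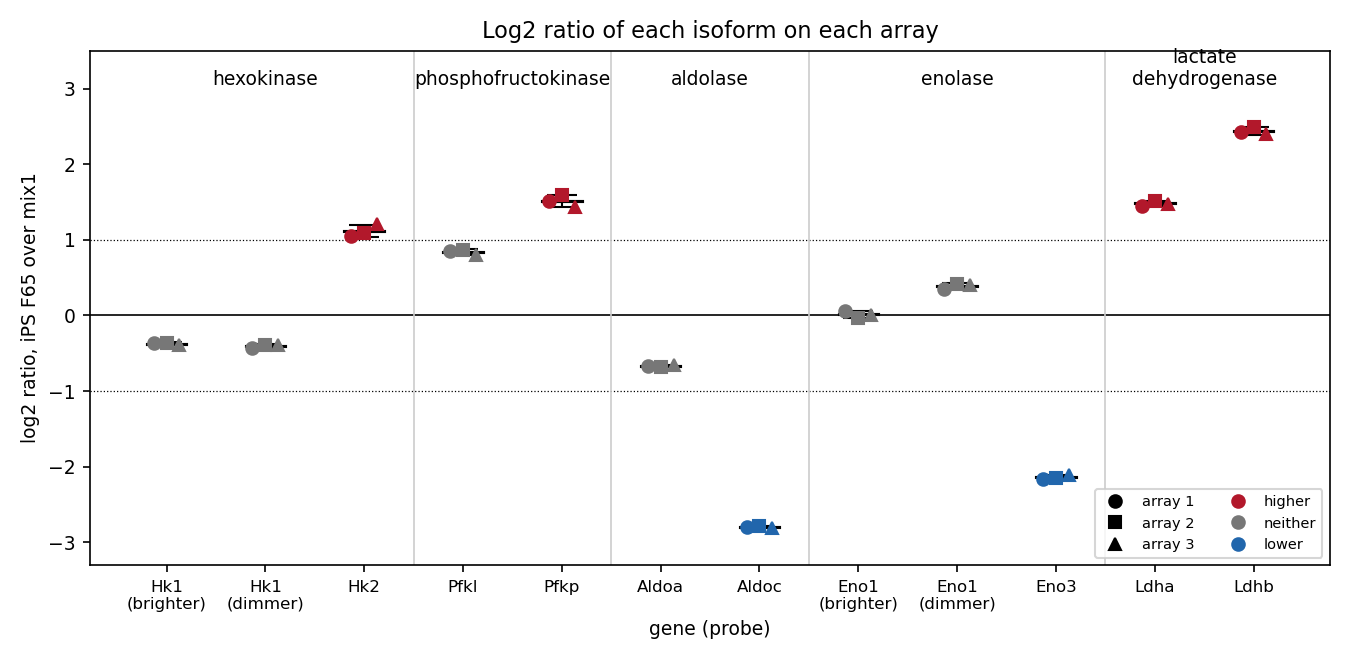
Log2 ratio of iPS F65 over mix1 (vertical axis) for the 12 probes of the 10 isoforms (horizontal axis, grouped by step), with a point for each of the 3 arrays and a bar for the mean and SD. Dotted lines mark the 2-fold limits, red points are probes called higher, blue points lower and grey points neither; Ldhb lies highest at 2.44 and Aldoc lowest at -2.80.

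At the opening step, where hexokinase phosphorylates glucose and so traps it in the cell, the inducible isoform Hk2 was higher in iPS F65 and the housekeeping isoform Hk1 was not called. The Hk2 signals were 476, 574 and 578 in the iPS F65 channel of arrays 1 to 3 and 229, 269 and 251 in the mix1 channel. All 3 iPS F65 values exceeded all mix1 values, and the log2 ratios were 1.05, 1.09 and 1.20. Their mean was 1.12 ± 0.078 (SD, n = 3), a 2.17-fold higher level, with an adjusted p of 9.41e-05 in limma, and 72% of all genes had a lower ratio. Hk2 lay just past the 2-fold limit, and its call was lost with normexp and loess (log2 ratio 0.61), with local backgrounds taken as given (0.32) and without background subtraction (0.61), where it still lay 0.69, 0.29 and 0.69 above the median of all genes. On the rat genome build rn3, which the scanner files name, the ends of the Hk2 probe map to chr4:117170976-117172483 on the minus strand, a span of 1508 bases for a 60-base probe.

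The brighter Hk1 probe gave 24324, 28245 and 28398 in iPS F65 and 31295, 36247 and 37368 in mix1. Every iPS F65 value lay below the lowest mix1 value, so the channels did not overlap. The mean log2 ratio was -0.37 ± 0.020, a 1.30-fold lower level with an adjusted p of 0.000179 in limma, which did not reach the 2-fold limit. The dimmer probe gave 2233, 2476 and 2682 against 3021, 3243 and 3523 and a log2 ratio of -0.41 ± 0.026, so both Hk1 probes read nearly the same ratio. The scanner files give no position for either Hk1 probe.

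Within the pair, the Hk2 ratio exceeded the Hk1 ratio by 1.42, 1.45 and 1.60 on the 3 arrays. The mean difference of log2 ratios was 1.49 ± 0.097 (SD, n = 3), a 2.81-fold unequal change. The exact two-sided sign-flip permutation test over the arrays gave p = 0.25, which is the smallest value that 3 arrays allow, so no pair could pass 0.05 in this design. Against the dimmer Hk1 probe, the relative of the Hk2 probe shown above, the difference was 1.52 ± 0.064. It was 0.65 ± 0.54 with local backgrounds taken as given, the lowest mean of all settings and little more than its SD. Of the other hexokinases, Hk3, the isoform known from leukocytes, gave 21, 32 and 32 in iPS F65, not well above background, and 1789, 2023 and 2012 in mix1. Its level was at least 29.5-fold lower in iPS F65, an untested bound that sets the mix1 mean against the lowest signal well above background on each array. The lower call came from the log2 ratio itself (-6.14 ± 0.26, adjusted p 2.47e-05 in limma), which rests on those iPS F65 signals near background. This call was lost with local backgrounds taken as given. The myeloid markers named above moved the same way as Hk3, and their part in its result was not tested. No probe was matched to Hkdc1.

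Phosphofructokinase commits the sugar to glycolysis and is the main point of control of the pathway. The platelet-type isoform Pfkp was higher in iPS F65, and the liver-type isoform Pfkl had a positive ratio under the 2-fold limit. Pfkp gave 14996.5, 17786 and 17287 in iPS F65 against 5238, 5909 and 6401 in mix1. The channels were far apart on every array, with a lowest iPS F65 signal above the highest mix1 signal. The log2 ratios of 1.52, 1.59 and 1.43 averaged 1.51 ± 0.078 (SD, n = 3), a 2.86-fold higher level with an adjusted p of 4.47e-05 in limma. Pfkp is read at chr17:74833468-74833527 on the plus strand (rn3), and its ratio exceeded that of 80.3% of all genes.

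Pfkl gave 5182, 5853.5 and 5997 in iPS F65 against 2876, 3201.5 and 3443 in mix1, again without overlap of the channels. Its log2 ratios of 0.85, 0.87 and 0.80 averaged 0.84 ± 0.036, which is 1.79-fold, with an adjusted p of 4.45e-05 in limma. Pfkl therefore passed the p threshold and missed the fold limit, and its probe maps to chr20:11032376-11032435 on the plus strand (rn3). The difference of Pfkp minus Pfkl was 0.67, 0.72 and 0.63, with a mean of 0.67 ± 0.043 and a 1.59-fold unequal change (exact permutation p = 0.25). This was the smallest difference of the 5 pairs, and it was 0.75 to 0.77 under the loess settings. Pfkm, the muscle-type isoform, gave 7672, 9234 and 8972 in iPS F65 against 12691, 14600 and 14313 in mix1. Its log2 ratio of -0.69 ± 0.035 (adjusted p 6.91e-05 in limma) was not called with the processed signals and was called lower with normexp and loess (-1.03). The 3 phosphofructokinases thus had ratios of unequal size and sign.

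Aldolase splits fructose bisphosphate into the triose phosphates. The brain-type isoform Aldoc was lower in iPS F65, the lowest ratio of the 10 isoforms, and the muscle and general isoform Aldoa was not called. Aldoc gave 321, 380 and 352 in iPS F65 and 2230.3, 2615 and 2460.4 in mix1. No iPS F65 value came near a mix1 value, and the log2 ratios of -2.80, -2.78 and -2.81 were among the tightest measured here. Their mean was -2.80 ± 0.0125 (SD, n = 3), a 6.95-fold lower level with an adjusted p of 5.52e-06 in limma, and 11.3% of all genes had a lower ratio. With local backgrounds taken as given the log2 ratio was -1.85 and the call was lost. The Aldoc probe maps to chr10:64322709-64322768 on the minus strand (rn3), whereas RefSeq places the gene on the plus strand of GRCr8. All 7 probes of other genes within 150 kb of it on rn3 also differ in strand from RefSeq, and their genes lie there in reversed order, while 95.3% of all 6684 probes compared have the strand of their gene.

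Aldoa gave 35054, 39196 and 40635 in iPS F65 against 55858, 62738 and 63964 in mix1. All mix1 values were the higher, and the log2 ratio of -0.67 ± 0.0125 corresponded to 1.59-fold, under the limit (adjusted p 3.14e-05 in limma). The difference of Aldoc minus Aldoa was -2.13, -2.10 and -2.15 on the 3 arrays, with a mean of -2.13 ± 0.024 and a 4.37-fold unequal change (exact permutation p = 0.25). It was -1.21 ± 0.79 with local backgrounds taken as given. The Aldoa probe maps to chr1:186121943-186122002 on the minus strand (rn3).

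Enolase makes phosphoenolpyruvate near the end of the pathway, and its isoforms changed unequally by about as much as the aldolases: the muscle-type isoform Eno3 was lower in iPS F65 while the general isoform Eno1 stayed near a ratio of 1. Eno3 gave 1976, 2338 and 2398 in iPS F65 against 8864, 10384.5 and 10379 in mix1. Every iPS F65 value lay below every mix1 value, and the log2 ratios were -2.17, -2.15 and -2.11. Their mean was -2.14 ± 0.027 (SD, n = 3), a 4.42-fold lower level with an adjusted p of 6.96e-06 in limma. The Eno3 probe maps to chr10:57555814-57555873 on the plus strand (rn3), and 14.8% of all genes had a lower ratio.

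Among skeletal muscle markers 4 of 6 tested were lower in iPS F65, beside 24.5% of all genes. These were Myh2, a myosin heavy chain of fast fibres (at least 494-fold lower), whose probe the files describe as similar to that gene under an older gene number, Tnnt3, a fast troponin T (at least 8.17-fold lower), Acta1 (log2 ratio -2.10 ± 0.11) and Actn3 (-1.499 ± 0.23). The summed signal of the 10 muscle markers with a probe was 736 to 958 in iPS F65 and 31796 to 36547 in mix1, most of it from Myh2. In iPS F65, Actn3 was well above background on 2 arrays, and Myh2 and Tnnt3 were not. These were tested through mix1 alone. Ckm, Myh4, Myog and Myod1 were not well above background in either channel. With local backgrounds taken as given 1 of the 6 was called lower, and with both channels required above background 1 of 3. The part of muscle cells in the Eno3 result was not tested.

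The brighter Eno1 probe gave 189306, 229711 and 219514 in iPS F65 and 181265, 234615 and 217715 in mix1. The channels overlapped fully, with the iPS F65 value higher on arrays 1 and 3 and lower on array 2. The mean log2 ratio was 0.015 ± 0.047 with an adjusted p of 0.603 in limma, and its sign turned with the processing: it was -0.41, -0.32 and -0.41 under the loess settings and -0.0093 without replicate 1. The dimmer Eno1 probe, a separate stretch of the same gene, gave 85738, 109501 and 112033 against 67571, 81907 and 84872. Its log2 ratio was 0.39 ± 0.039 (adjusted p 0.000386 in limma over all probes), also under the limit but higher than that of the brighter probe on every array. The brighter probe maps to chr5:167415552-167415612 and the dimmer to chr5:167414958-167415368, both on the plus strand (rn3).

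The difference of Eno3 minus Eno1 was -2.16 ± 0.061 (SD, n = 3), a 4.46-fold unequal change (exact permutation p = 0.25). It was -2.53 with the dimmer Eno1 probe and -1.69 ± 0.37 with local backgrounds taken as given. Eno2, the enolase known from neurons, gave 776, 875 and 911 in iPS F65 against 8759, 9908 and 10244 in mix1. Its log2 ratio of -3.50 ± 0.0047 meant an 11.3-fold lower level (adjusted p 5.38e-06 in limma), lower than that of Eno3. Of 12 neural and glial markers with a probe 5 were tested. Of these, 3 were higher in iPS F65 (Nefl, Map2 and Stmn2), beside 30.9% of all genes, and Slc1a3 was lower (log2 ratio -1.17 ± 0.021). Summed signals were 53180 to 61975 in iPS F65, most of it from Stmn2 (34067 to 39712), and 32677 to 38772 in mix1. In mix1, Map2 was not well above background (at least 2.16-fold higher in iPS F65), and Nefl was on 1 array (SD of its ratio 0.91). With normexp and loess 2 were called higher, and with local backgrounds taken as given 1. Gfap, Aqp4, S100b and Snap25 were not well above background in either channel. Eno4, a testis-associated enolase, gave 162, 222 and 204 against 69, 76 and 87. Its log2 ratio was 1.34 ± 0.19 (adjusted p 0.000559 in limma), and it was called higher. In mix1 it was well above background on 2 of 3 arrays, so Eno4 was tested through the iPS F65 channel alone. The call was lost under the 3 loess settings.

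Lactate dehydrogenase interconverts pyruvate and lactate, with Ldha encoding the muscle-type subunit M and Ldhb the heart-type subunit H of the tetramer. Both genes were higher in iPS F65, the single pair in which both isoforms were called, and the ratio of Ldhb was the highest of the 10. Ldhb gave 82865, 93649 and 90766 in iPS F65 and 15409, 16616 and 17219 in mix1. The channels were far apart, and the log2 ratios of 2.43, 2.49 and 2.40 averaged 2.44 ± 0.050 (SD, n = 3). This is a 5.43-fold higher level with an adjusted p of 8.83e-06 in limma, above 92.2% of all genes. The ends of the Ldhb probe map to chr4:180307045-180309073 on the minus strand (rn3), a span of 2029 bases.

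Ldha gave 97399, 121225 and 119707 in iPS F65 against 35570, 42634.5 and 42929 in mix1. Every iPS F65 value was above every mix1 value, and the log2 ratios of 1.45, 1.51 and 1.48 averaged 1.48 ± 0.027, a 2.79-fold higher level (adjusted p 1.05e-05 in limma). The arrays carry the Ldha probe on 10 spots, which gives a measure of error within an array. The SD of the log2 ratio over spots was 0.071 on array 1, 0.021 on array 2 and 0.018 on array 3, where 9 spots were left after a flagged outlier. Array 1 had the widest spread between spots. The Ldha probe maps to chr1:97485785-97485844 on the plus strand (rn3).

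The Ldhb ratio exceeded the Ldha ratio by 0.97, 0.99 and 0.92 on the 3 arrays. The mean difference of 0.96 ± 0.036 (SD, n = 3) was a 1.95-fold unequal change (exact permutation p = 0.25), and it lay between 0.95 and 1.00 in all other settings. Ldhc, the subunit of testis, was in neither channel well above background. Ldhd, which oxidises the other form of lactate, gave 118, 141 and 125 against 316, 321 and 331, a log2 ratio of -1.34 ± 0.13 (adjusted p 0.000213 in limma), and its call was lost with local backgrounds taken as given. The lactate dehydrogenases thus held both the highest ratio of the 10 isoforms and a related enzyme that was lower.

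**Figure D2:**
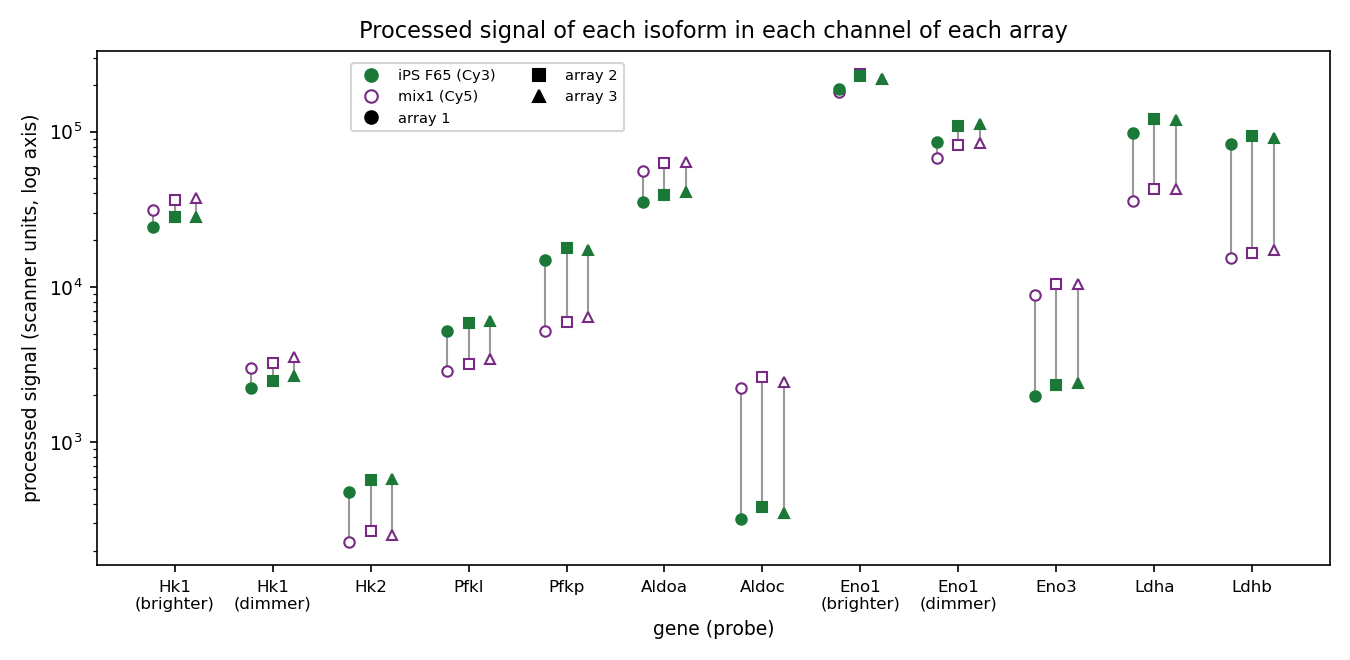
Processed signal (vertical log axis, scanner units) of the 12 probes in the iPS F65 channel (filled green) and the mix1 channel (open purple) of the 3 arrays, with a line joining the channels of 1 array. Heights are not comparable between probes; within a probe Ldha, Ldhb, Pfkp, Pfkl and Hk2 have all green points on top, Aldoa, Aldoc, Eno3 and both Hk1 probes all purple points, and the channels overlap for the brighter Eno1 probe.

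**Figure D3:**
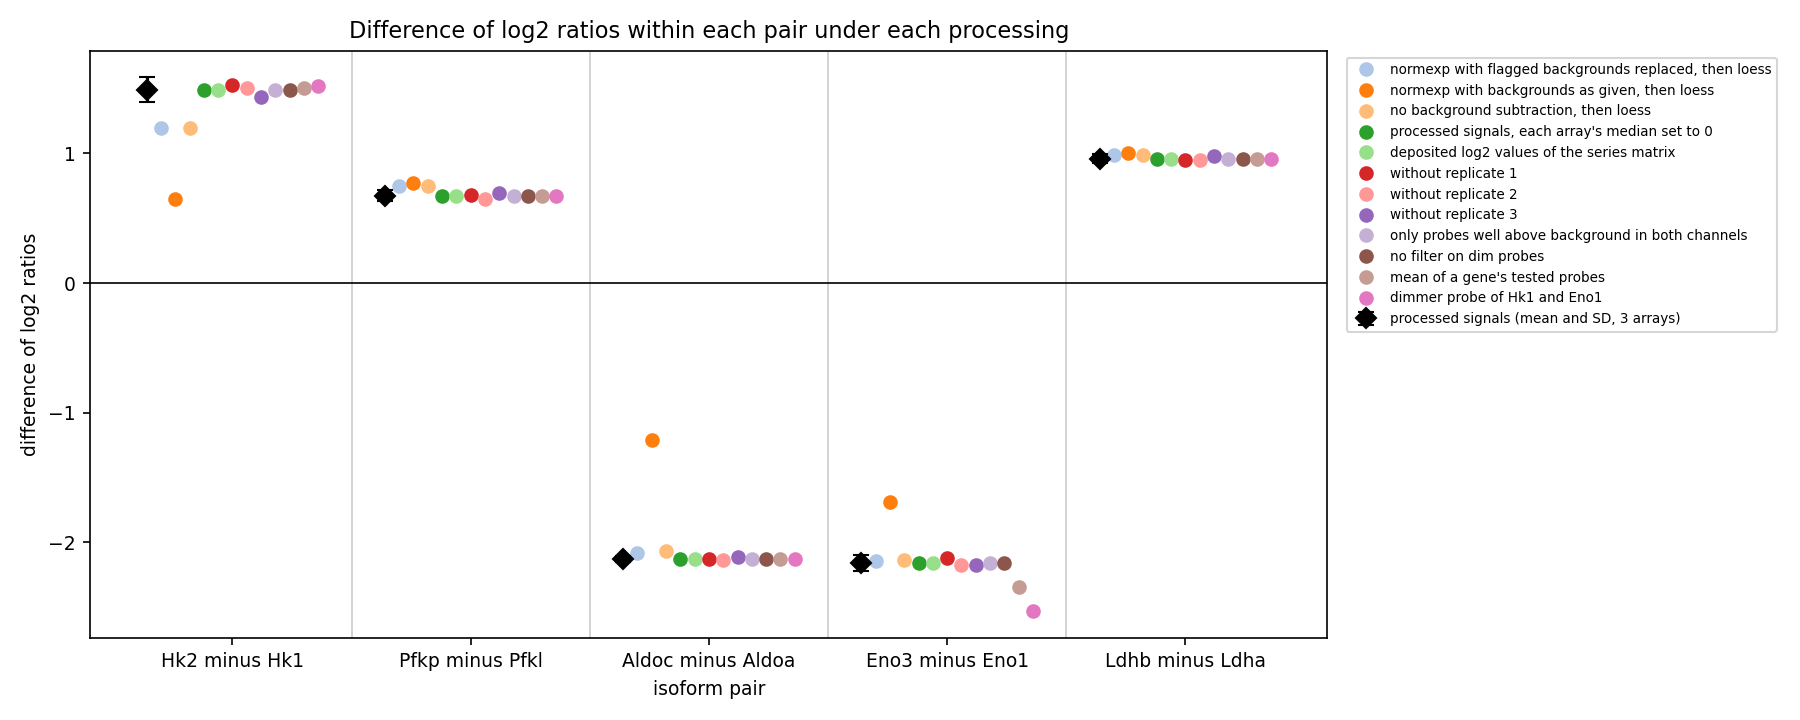
Difference of log2 ratios within each of the 5 pairs (vertical axis), as measured with the processed signals (black diamond, mean and SD over 3 arrays) and under each other processing (coloured points). No pair crosses 0; the points farthest from the diamonds are those with local backgrounds taken as given, at 0.65 for Hk2 minus Hk1 and -1.21 for Aldoc minus Aldoa.

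The upstream sequences of both lactate dehydrogenase genes are shown because these members were higher together. The 120 bases before the RefSeq start (build GRCr8) are chr1:106507972-106508091 on the plus strand for Ldha and chr4:177177409-177177528 on the minus strand for Ldhb, with capitals for ACGTG on either strand. ACGTG and GCGTG are the forms of the core that hypoxia-inducible factor is known to bind, and GCGTG is not marked.
Ldha upstream: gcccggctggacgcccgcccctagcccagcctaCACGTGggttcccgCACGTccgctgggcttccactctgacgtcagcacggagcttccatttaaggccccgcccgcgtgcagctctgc
Ldhb upstream: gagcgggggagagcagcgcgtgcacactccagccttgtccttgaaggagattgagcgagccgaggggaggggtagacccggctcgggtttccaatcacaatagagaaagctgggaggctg
The Ldha stretch held 3 matches to ACGTG, 2 of which overlap as a CACGTG palindrome, the E-box that Myc is known to bind. The Ldhb stretch held no ACGTG and 1 GCGTG, at -103 from the start. In windows of 300 bases, 250 before and 50 after the start, ACGTG on either strand occurred in 19.3%, GCGTG in 29.7% and CACGTG in 6.42% of 33469 rat promoters. Among the members, counting a gene if any of its listed promoters matched, ACGTG was found for 1 of 4 higher genes (Ldha), 1 of 2 lower genes (Aldoc) and 3 of 4 others (Aldoa, Eno1 and Hk1). GCGTG was found for 3 of 4 higher genes (Ldha, Ldhb and Pfkp), 1 of 2 lower genes (Aldoc) and 2 of 4 others (Eno1 and Pfkl). A match is a description of these letters and says nothing of binding.

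For Aldoa, Eno1 and Ldha the values are uncertain because RNA of gene copies could add to their signals. RefSeq lists 30 pseudogenes each for Eno1 and Ldha and 9 for Aldoa, and how alike they are to the genes was not measured. The arrays hold probes that the scanner files describe as similar to these genes, a set picked after the data were seen. It includes the protein-coding Aldoart2 and the non-coding Eno1l2, which RefSeq does not list as pseudogenes. Of 14 alpha enolase-like probes 9 were called higher, and the 14 had log2 ratios from -0.06 to 2.64 and a median of 1.07. Of the 14, 13 lay above the brighter Eno1 probe and 12 above both Eno1 probes. All 6 lactate dehydrogenase A-like probes were called higher, from 1.59 to 3.24, where 31.2% of all probes tested were called higher and 24.1% lower. The 3 tested aldolase A-like probes lay between -0.84 and -0.29, around the value of Aldoa. The Ldha probe shares a run of 14 bases with 4 other gene probes, whereas the Pfkp, Aldoa and Hk2 probes share no such run with another. How much of each signal comes from copies was not tested.

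**Figure D4:**
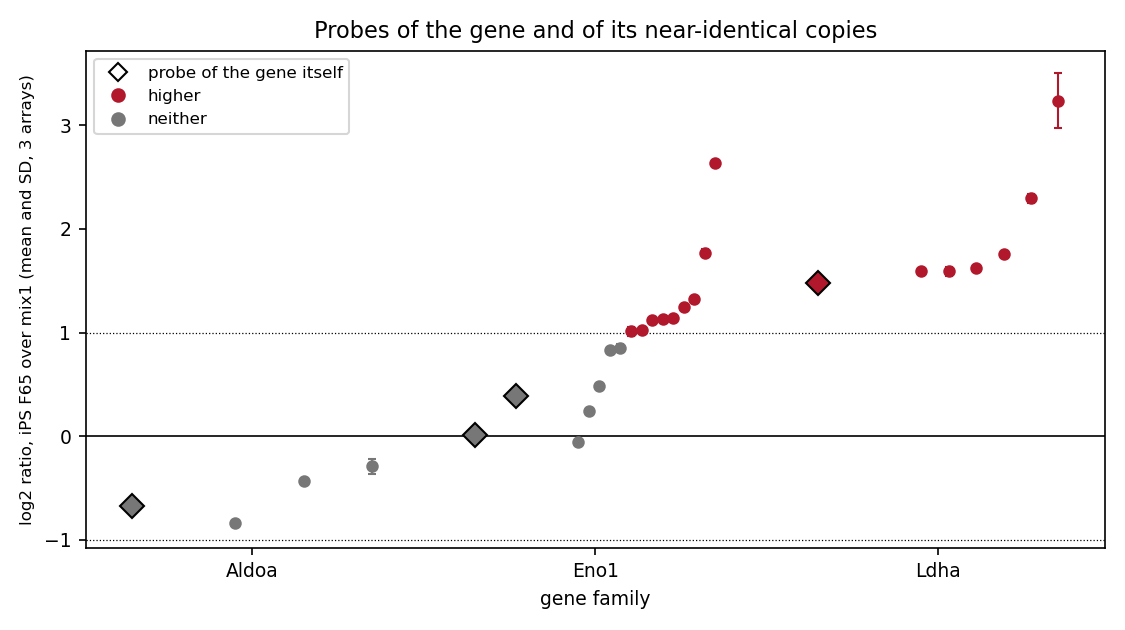
Log2 ratio of iPS F65 over mix1 (vertical axis, mean and SD over 3 arrays) of the probes of Aldoa, Eno1 and Ldha themselves (diamonds) and of tested probes described as similar to them (circles, ordered by value). Red marks probes called higher. All 6 Ldha-like circles lie above the Ldha diamond. Of 14 Eno1-like circles, 13 lie above the diamond of the brighter Eno1 probe and 12 above both Eno1 diamonds.

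With the processed signals, the tested genes of the remaining steps of glycolysis stayed within the 2-fold limits. Of 11 genes with a probe 8 were tested, and none was called higher or lower, where 55.4% of all genes were called. All but Tpi1 (adjusted p 0.753 in limma), 7 genes, had an adjusted p under 0.05, so the 2-fold limit kept them from a call. Their log2 ratios ran from -0.73 ± 0.022 for Gapdh, the glyceraldehyde phosphate dehydrogenase, to 0.99 ± 0.0038 for the phosphoglycerate mutase Pgam1, with a median of -0.14 beside 0.25 for all genes. These ends of the range, named after their values were seen, were close to the limit. Gapdh was called lower with normexp and loess (-1.12), with local backgrounds taken as given (-1.02) and without background subtraction (-1.12). Pgam1 was called higher (1.02) after median centring of the arrays. The triose phosphate isomerase Tpi1 (-0.0048 ± 0.0086), the phosphoglycerate kinase Pgk1 (0.05 ± 0.0052) and the pyruvate kinase Pkm (-0.28 ± 0.058) lay between Gapdh and Pgam1.

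Of 9 tested genes for glucose uptake and lactate transport, 1 was higher and 6 were lower, beside 30.9% and 24.5% of all genes, and the median log2 ratio was -1.86. Of the 6, Slc2a4, Slc2a5 and Slc16a7 were tested through the mix1 channel alone, and with both channels required above background 1 was higher and 3 were lower of 6, with a median of -1.18. The higher one was Slc16a1, which encodes the lactate carrier MCT1 (log2 ratio 1.42 ± 0.0068, 2.68-fold, adjusted p 7.72e-06 in limma). Slc2a4, the insulin-responsive glucose carrier, was at least 11.1-fold lower and Slc16a7, the carrier MCT2, at least 23.9-fold lower, both not well above background in iPS F65. Bsg, the chaperone of MCT1 and MCT4, was lower at -1.68 ± 0.044. With local backgrounds taken as given 2 of the 6 lower calls were left. Outside the naming rule and picked after their values were seen, the carrier MCT4 (Slc16a3) was lower at -1.86 ± 0.011, and the general glucose carrier Slc2a1 was not called at -0.47 ± 0.0069.

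Among the enzymes that direct carbon around glycolysis the 18 tested held 4 higher and 4 lower ones, beside 30.9% and 24.5% of all genes, and had a median log2 ratio of -0.22 (-0.15 with genes below background at their bound). The highest were Pdha1, the catalytic subunit of pyruvate dehydrogenase (2.95 ± 0.017, 7.71-fold, adjusted p 5.52e-06 in limma), and Pdk1, a kinase that inactivates this complex (1.44 ± 0.016). Pdk2, another such kinase, was lower (-4.44 ± 0.12, adjusted p 1.04e-05 in limma), and G6pc1, which releases glucose from its phosphate, was at least 1.15-fold lower. That bound does not reach 2-fold, and the G6pc1 call was lost under the 3 loess settings (-0.88, -0.34 and -0.85). Under normexp and loess 1 higher and 5 lower calls were counted, the call of Pdk1 being lost at 0.92. In the branches to glycogen and pentose phosphates 2 of 15 tested were higher and 4 lower, and the median log2 ratio was -0.34. Rpe, an epimerase of pentose phosphates, was the highest (1.70 ± 0.012), and the glycogen synthase Gys2 was at least 1.66-fold higher, a call lost with normexp and loess. The liver glycogen phosphorylase Pygl was the lowest (-2.03 ± 0.036).

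**Figure D5:**
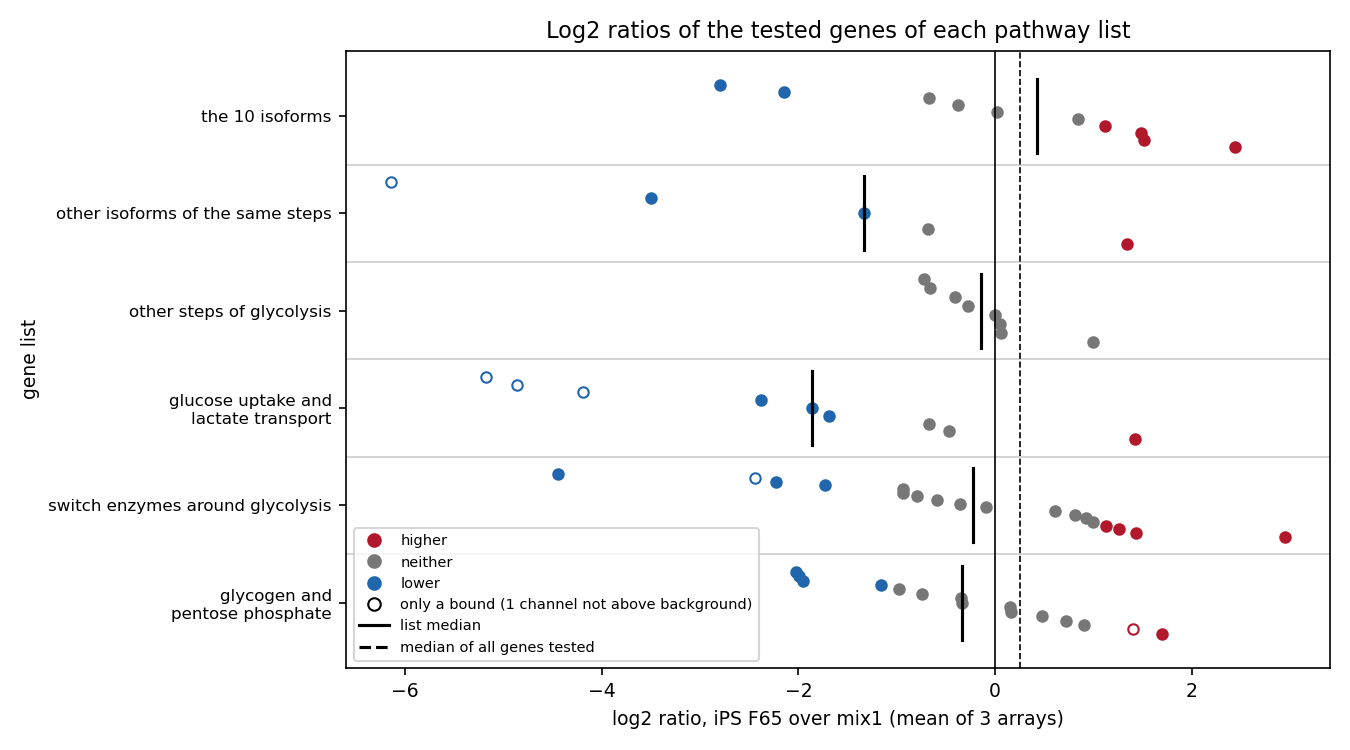
Log2 ratio of iPS F65 over mix1 (horizontal axis, mean of 3 arrays) of the tested genes of each list (rows), with genes called higher in red, lower in blue and neither in grey, open points where 1 channel gave only a bound, a bar at the list median and a dashed line at the median of all genes, 0.25. The other steps of glycolysis cluster within the 2-fold limits, whereas the transport genes lie mostly to the left, with a median of -1.86.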

How the data were processed

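RNA of iPS F65 (Cy3) and mix1 (Cy5) was compared on 3 arrays of 1 slide and 1 scan, with 45018 spots each. Spot intensity was extracted by the authors with Agilent Feature Extraction 9.5.3.1, per the file headers, which also name the probe build rn3; the processed intensity is background-subtracted and dye-normalized there. The log2 values deposited in the series' value table equalled the mean log2 ratio of the processed signals to within 3.1e-06. The 3 samples share mix1 as their control.

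Control and outlier-flagged spots were left out, spots of a probe were averaged, and probes well above background on all 3 arrays in at least 1 channel were tested (25801 of 41012). Probes were named through RefSeq by accession (10735), gene number (1222) or unique older name (3729). The other probes kept the name in the scanner files, and each such name counted as a gene. Of the 12 member probes 11 matched by accession, and that of Pfkp was taken by its file name. A gene with several probes was read by its brightest. limma 3.58.1 in R 4.3.3 (lmFit, eBayes) tested the mean log2 ratio against 0, and a bound replaces the fold where a channel was never well above background. Pairs were compared by the difference of log2 ratios per array.

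Named genes were all members with all probes, all other isoforms with a probe and, per list, the 2 highest and 2 lowest called genes. Some genes that this rule names are not reported here. The members, lists and this rule were chosen with earlier results of these data known. Alternatives were normexp (offset 50) with loess, with local backgrounds flagged as uneven replaced or as given, no background subtraction with loess, median centring, the deposited values, other filters and probes, and leaving out each replicate. In simulated data with 21775 genes, 96% of 100 genes changed by 3 log2 units and 86% of 100 changed by 1.5 were recovered. No other gene was changed there, and dye effects and the spread of mix1 were left out. These rates therefore need not hold for the arrays, where 55.4% of genes were called. Sequences came from the scanner files and RefSeq (GRCr8).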

Additional observations from a re-analysis of the deposited data

How the results depend on the processing

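The mean of all 5 differences within pairs kept its direction in every alternative. With normexp, flagged backgrounds replaced and loess, 3977 genes were higher (6723 with the processed signals), the log2 ratio of Hk2 was 0.61 and that of Eno1 -0.41, and the differences were 1.19 for Hk2 minus Hk1, 0.75 for Pfkp minus Pfkl and -2.08 for Aldoc minus Aldoa. Without background subtraction the same values were 3972 genes, 0.61, -0.41, 1.20, 0.75 and -2.06. With local backgrounds as given, 2353 genes were higher and 2078 lower (5331 with the processed signals), Hk2 was at 0.32, Aldoc at -1.85 and Eno1 at -0.32, and the differences were 0.65 ± 0.54, 0.77 ± 0.066, -1.21 ± 0.79, -1.69 ± 0.37 (Eno3 minus Eno1) and 1.00 ± 0.037 (Ldhb minus Ldha; SD, n = 3). Requiring both channels above background left 3230 lower genes, since fewer probes were tested. The mean of a gene's probes gave -2.34 for Eno3 minus Eno1, and the dimmer Eno1 probe, chosen after seeing the data, -2.53. The cause of the other changes was not tested. Relative to the median of all genes, Eno1 lay lower with the processed signals and under the 3 loess settings, from -0.35 to -0.24.

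Leaving out each replicate gave 6677 to 6709 higher and 5264 to 5306 lower genes. Differences then were 1.43 to 1.53 (hexokinase), 0.65 to 0.69 (phosphofructokinase), -2.14 to -2.115 (aldolase), -2.18 to -2.12 (enolase) and 0.95 to 0.98 (lactate dehydrogenase). Eno1 ranged from -0.0093 to 0.037 and turned negative without replicate 1; no call of the other 9 isoforms was lost. No paired analysis was possible because replicate numbers exist in 1 group alone; each ratio already sets iPS F65 against mix1 on the same array. The number of arrays, the fixed dyes and the single control limit the precision; all 12 probes were well above background in both channels.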
